A study of Mus musculus with 4 samples.

Results

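The probes described here come from long stretches of the mouse genome, 5000 bases or more, that the array's design lists by their mm9 coordinates and strand in place of a gene name. A probe belonged to the set when its interval was that long and its spot was well above background on both arrays of control kidneys, of Sall1 knockout kidneys, or of both. In all, 5707 of the 55681 probes on the array met this rule, out of 12239 probes placed on 2015 long intervals. The probes were thus chosen by the background calls of these 4 arrays, so how many were detected is given as a description without a test. RNA came from E13.5 kidneys of mouse embryos of a 129 and C57BL/6 hybrid strain, treated with tamoxifen at E12.5, 24 hours earlier. The 2 control samples are titled as floxed and the 2 Sall1 knockout samples as CreER knockouts, and all 4 are described as treated. CreER is a Cre recombinase that tamoxifen switches on, used here to remove Sall1, a gene for a zinc finger protein that regulates transcription in kidney progenitors; whether the controls carried CreER is not given, so an effect of CreER and an effect of the deletion cannot be told apart. The labels do not say how many embryos or litters a sample held, so the spread between the 2 samples of a group may be technical.

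Much of the mammalian genome outside protein-coding genes is transcribed, and long intergenic RNAs are the spliced or unspliced products of such stretches, often low in level and specific to a tissue. The array carries probes on 1 strand or on both strands of each interval, so an interval is a place where a transcript may lie and not a gene model. Some long non-coding RNAs hold chromatin regulators or transcription machinery at neighbouring genes, and others act as hosts of small RNAs or have no known role.

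Signals are given as log2 of the processed intensity over that array's 75th percentile, so 0 is the 75th percentile of the array and each unit is a doubling. Differences are knockout minus control on this scale, with the standard error (SE) of a limma fit over 34264 probes and n = 2 arrays per group. The Sall1 probe read 1.79 and 1.80 in the controls and 1.03 and 1.06 in the knockouts. Its difference was -0.75 ± 0.059 (SE), with a limma adjusted p of 0.161; whether the probe lies in the deleted part is not given. All 11 embryonic kidney markers, among them Six2, Wt1 and Ret, were well above background on every array. Of these 11, 4 were higher and 7 lower in the knockouts. The groups did not overlap in 2 of the 4 and in all 7, beside 20.8% (higher) and 27.2% (lower) of all probes tested. The median difference of the 11 was -0.18. Their summed signals were 135 to 136 times the 75th percentile in the controls and 110.0 to 114 in the knockouts. None passed in limma; Cited1, a marker of nephron progenitors, differed by -2.20 ± 0.085 (adjusted p = 0.0945), Osr1 by -0.85 ± 0.067 and Six2 by -0.51 ± 0.091. Markers of other tissues also differed between the groups: all 10 liver and gut markers were higher in the knockouts, with a median of 1.69, and their summed signal was 13.8 to 20.1 in the controls and 40.2 to 43.6 in the knockouts. The 9 skeletal muscle markers above background (Ckm was not) were all higher, with a median of 1.26 and sums of 11.1 to 28.4 against 34.5 to 52.9. All 5 macrophage markers on the array were higher, with a median of 0.52 and sums of 5.16 to 5.46 against 6.68 to 7.76, and the 6 neural markers had a median of -0.085 and sums of 3.17 to 3.57 against 3.01 to 3.07. The 7 erythroid markers summed to 906 and 1573 in the controls and 951 and 1712 in the knockouts, so they differed more within the groups than between them. Xist was the one marker of sex above background, with summed signals from 2.80 to 2.94 over the arrays, and the 4 Y-linked genes were not. The part of these marker differences in the results below was not tested, and fewer cells of a type and less RNA per cell cannot be told apart in such samples.

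Of the long interval probes, 46.6% met the rule, close to the 46.4% of the 3942 probes on intervals under 5000 bases, while 67.7% of the 39500 other probes did. On single arrays, 49.1% and 48.3% of the long interval probes were well above background in the controls, and 49.0% and 43.8% in the knockouts. The second knockout array thus had the lowest share. It was also the lowest over all probes on the array, at 59.7%, beside 63.3% in the first knockout and 63.2% and 62.5% in the controls. Of the 5707 probes, 5098 passed in both groups, 468 in the controls only and 141 in the knockouts only. The same split over all probes was not counted. Of the 6532 that did not meet the rule, 5624 were above background on no array and 908 on some. The 5707 probes lay on 2293 strands of 1631 intervals, and 384 intervals had none. A strand carried 1 to 10 probes, with a median of 4, and probes of 1 strand share a source and are not replicates.

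Interval length made little difference to detection. The share of probes that met the rule was 47.6% on intervals of 5000 to 10000 bases, 47.9% up to 20000, 45.5% up to 50000, 45.3% up to 100000 and 45.7% above that. By chromosome it ran from 38.4% on chromosome 9 to 55.3% on chromosome 5. The probes were dim: their median signal was -2.83, against -1.03 over all 34264 probes tested, and 738 of them (12.9%) lay above the array's 75th percentile.

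The brightest long interval probes lay far above the 75th percentile and differed little between the groups. The probe on the reverse strand of chr11:22681800-22707775 read 7.91 and 7.92 in the controls and 7.93 and 7.93 in the knockouts, a difference of 0.013 ± 0.058 (SE). The forward-strand probe of chr17:48068261-48087905 read 7.41 and 7.47 against 7.23 and 7.26, lower in both knockouts by -0.20 ± 0.064 (adjusted p = 0.402 in limma). The reverse-strand probe of chr7:108209996-108216032 read 7.37 and 7.09 against 7.40 and 7.43. There, both knockout arrays were above both controls, but the 2 controls stood 0.28 apart, further than the 0.19 between the group means. The forward-strand probes of chr12:73838608-73862621 (0.041 ± 0.093) and chr12:119825125-119850750 (-0.030 ± 0.059) gave differences smaller than their errors.

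No long interval probe differed between the groups at an adjusted p under 0.05 in limma, nor did any other probe on the array (0.0% called in each direction). The smallest adjusted p was 0.111 among the long interval probes and 0.0945 over all. At an unadjusted p under 0.05, 297 long interval probes (5.20%) were higher and 339 (5.94%) lower in the knockouts, beside 6.23% and 5.8% over all probes tested. With a trended and robust variance prior in limma, 17 probes passed as higher and 14 as lower after adjustment, which is 0.298% and 0.245% of the set beside 0.534% and 0.625% of all probes tested.

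The groups were also counted as apart or not, as a description without a test. Both knockout values lay beyond both control values, with means at least 1.5-fold apart, for 102 probes that were higher and 86 that were lower in the knockouts. These are 1.79% and 1.51% of the long interval probes, beside 2.37% and 1.14% of all probes tested. Of them, 52 of the higher and 51 of the lower ones were not above background on all 4 arrays. The rule favours a difference in a probe that enters through its brighter group. Among the 5098 probes above background on every array the counts were 50 and 35 (0.981% and 0.687%). Shares over all probes were not counted for this filter or for the scalings that follow, so these counts are not set against the whole array. The split moved with the scaling: quantile normalization gave 73 higher and 120 lower, and normexp background correction 10 and 5. With the groups apart at any fold, 1037 probes were higher and 1216 lower (18.2% and 21.3%, beside 20.8% and 27.2% of all). The shares are near those of the whole array, below them among the higher probes and above them among the lower ones at 1.5-fold.

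Most differences were small. Over the 5707 probes, the median difference was -0.0079, with quartiles at -0.13 and 0.12, and over all tested probes it was -0.014. The median size of the difference, whatever its sign, was 0.12, and the median gap was 0.14 between the 2 control arrays and 0.15 between the 2 knockout arrays. A gap between single arrays is wider than one between means of 2 for the same error, so the sizes are given side by side and not compared. Dim probes varied most: in the dimmest 1275 of the 5098 the median sizes were 0.16 between the groups and 0.23 both between controls and between knockouts, and in the brightest 1275 they were 0.077, 0.077 and 0.076. Of the 85 probes 1.5-fold apart in this set, 34 were among the dimmest 1275 and 7 among the brightest.

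**Figure D1:**
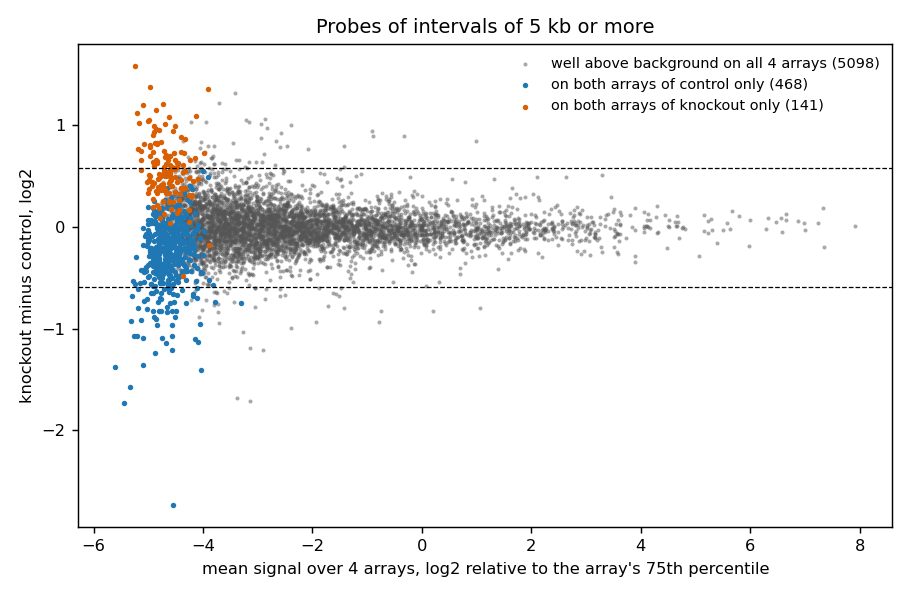
Each point is 1 of the 5707 long interval probes: mean signal over the 4 arrays (x axis, log2 relative to the array's 75th percentile) against knockout minus control (y axis, log2), coloured by the groups in which the probe was well above background. Dashed lines mark 1.5-fold; most points lie between them, and those in 1 group only sit at the dim end.

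Of the 8 higher probes with the smallest p, 5 lay on 2 intervals of chromosome 10 that are 656525 bases apart. On the reverse strand of chr10:9322308-9332183, a 9875-base interval, all 4 probes were higher in both knockouts. The brightest read -1.35 and -1.41 in the controls and -0.88 and -0.84 in the knockouts; the one with the smallest p read -4.02 and -4.13 against -2.79 and -2.72. In every one of the 4 probes the groups did not overlap, with differences from 0.52 to 1.32. The last probe was 2.49-fold higher (1.32 ± 0.074, adjusted p = 0.111 in limma and 0.0131 with the trended robust prior). The mean of the 4 probes was -3.15 and -3.14 in the controls and -2.21 and -2.20 in the knockouts, a difference of 0.94 ± 0.055 (SE), with an adjusted p of 0.0892 in a limma fit of strand means. On its forward strand 2 of 4 probes met the rule, and both were higher, by 1.04 and 1.36; the second was above background on 1 control array and both knockout arrays.

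The larger interval of the pair, chr10:8606683-8665783, spans 59100 bases and was higher on both strands. On the reverse strand 4 of 5 probes met the rule. Their means were -2.05 and -2.02 in the controls and -1.28 and -1.30 in the knockouts, with no overlap in any probe and differences from 0.35 to 0.95. The probe with the smallest p read -0.79 and -0.78 against 0.15 and 0.080, a 1.86-fold difference of 0.90 ± 0.064 (adjusted p = 0.140 in limma, 0.00205 with the trended robust prior). On the forward strand 3 of the 4 passing probes were higher, by 0.85, 1.03 and 1.06, and 1 was lower by -0.52, reading -4.39 and -4.05 against -4.48 and -5.00. A short interval at its end, chr10:8662761-8665101 on the reverse strand, has 1 passing probe, which read -3.70 and -3.71 against -3.35 and -3.10. All these chromosome 10 signals stood apart by group while the liver, muscle and macrophage markers above were also higher, and 7 kidney markers lower, in the knockouts. Chromosome 10 held 15 of the 102 higher probes and 3 of the 86 lower ones, on 216 probes that met the rule. Most of those 15 are probes of the pair of intervals described here. Shares by chromosome over all probes tested were not counted, so these counts are not set against the whole array.

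On other higher intervals the probes of a strand differed more from each other. On the reverse strand of chr3:19179899-19216399, all 8 passing probes of 9 were higher, but by 0.067 to 0.97, and in 5 of them the groups did not overlap. The probe with the smallest p read -3.37 and -3.28 in the controls and -2.33 and -2.38 in the knockouts (1.96-fold, adjusted p = 0.140), whereas the mean of the 8 differed by 0.33 ± 0.068. On the forward strand of chr8:85609155-85615170, 1 of the 2 passing probes read -1.34 and -1.35 against -0.49 and -0.41, or 1.86-fold, and the other -3.77 and -3.26 against -3.45 and -3.43. So 1 probe of that strand separated the groups and the other did not. On the reverse strand of chr13:99465269-99472596, a probe that was dim on both control arrays was at least 1.74-fold higher in the knockouts (adjusted p = 0.163). It entered through the knockouts, its brighter group, so the rule favoured a difference and its p does not allow for that. The only other passing probe of the strand differed by -0.0043.

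**Figure D2:**
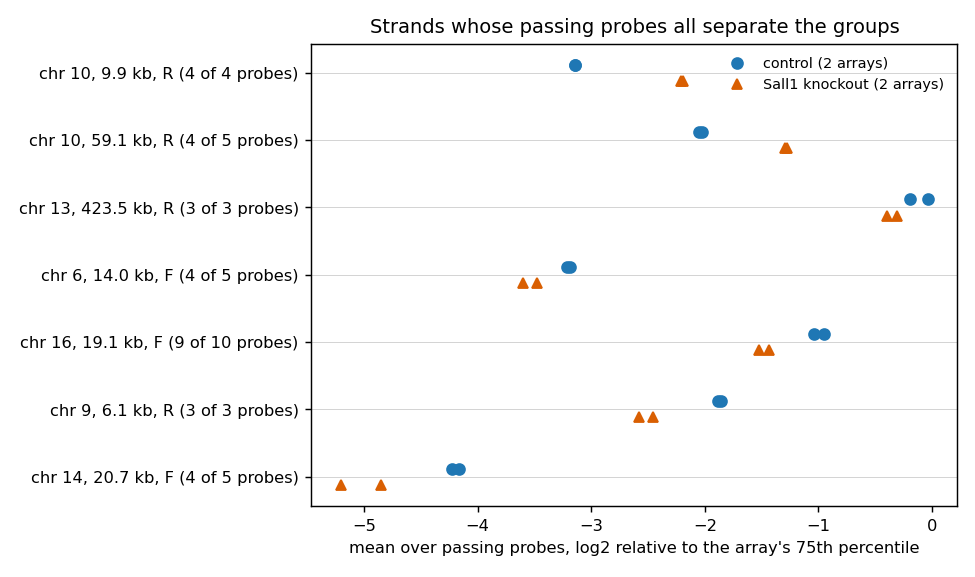
Mean signal of each array over the passing probes of 7 named strands (x axis, log2 relative to the array's 75th percentile), with circles for the 2 control and triangles for the 2 knockout arrays; rows give chromosome, interval length and strand. Rows are the named strands with 3 or more passing probes in which every passing probe separates the groups. The groups are thus apart in every row by choice, by 0.24 to 0.94, and the chromosome 10 rows are the higher ones.

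Among the probes named for their small p, the lower ones lay on more chromosomes than the higher ones. This did not extend to the intervals of the whole set. There, the 102 probes at least 1.5-fold higher lay on 84 intervals and the 86 lower ones on 68. The most complete lower case was the forward strand of chr16:43623581-43642715, 19134 bases long. On it, 9 of 10 probes met the rule and all 9 were lower in both knockouts. The strand mean was -1.03 and -0.95 in the controls and -1.52 and -1.44 in the knockouts, a difference of -0.49 ± 0.070 (adjusted p = 0.218 in the fit of strand means). The 9 probes ranged from -0.60 to -0.30, over signals that differ widely: one read 1.54 and 1.63 against 1.18 and 1.18, another -2.74 and -2.77 against -3.24 and -3.47. The trended robust prior called 4 of the 9. Short intervals that overlap the long one on the same strand gave similar differences. Across its start, 3 probes of chr16:43623175-43624069 had a mean of 0.87 and 0.85 against 0.35 and 0.30. Inside it, 3 of chr16:43635730-43639104 had a mean of -0.95 and -0.77 against -1.34 and -1.45. Overlapping intervals can share a transcript, so these are not independent measurements. On the reverse strand of the long interval, 4 of 10 probes met the rule, and they went both ways, from -0.83 to 0.22. Chromosome 16 held 12 of the 86 lower probes and 2 of the 102 higher ones, on 207 probes. Here too, shares by chromosome over all probes tested were not counted. Most of the 9 forward probes above are not among the 12, as their median difference was -0.48, under 1.5-fold. Those 12 include all 3 probes on the reverse strand of chr16:3111550-3130500, at the start of the chromosome, which differed by -1.71 to -1.13.

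On chr8:91569369-91594119, 24750 bases long, most forward probes were lower and most reverse probes were not. Of 8 passing forward probes, 6 were lower in the knockouts, and in 5 of these the groups did not overlap, with differences from -0.82 to -0.51. The first of them read -0.28 and -0.39 in the controls and -1.19 and -1.13 in the knockouts (-0.82 ± 0.073, adjusted p = 0.165 in limma and 0.00523 with the trended robust prior). The brightest forward probe read 3.23 and 3.17 against 3.31 and 3.28, so not every forward probe was lower. The order of the probes along the interval was not used here. Sall1 is also on chromosome 8, and no mm9 position of it was used here.

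Other lower strands had from 2 to 4 passing probes. The 3 probes on the reverse strand of chr9:114412295-114418384 had a mean of -1.88 and -1.86 in the controls and -2.58 and -2.46 in the knockouts, with differences from -0.67 to -0.59. The 1 passing probe of a short interval inside it, chr9:114416254-114416844, read -1.06 and -1.07 against -1.80 and -1.69. Of 3 forward probes on chr14:77077374-77086910, 2 met the rule: one read 0.64 and 0.58 against -0.041 and -0.38, the other -1.32 and -1.26 against -1.91 and -1.97, so both were lower in both knockouts. On the same strand, 171115 bases further on, all 4 passing probes of chr14:77258025-77278750 were lower, by -1.58 to -0.34. On the forward strand of chr6:148162552-148176577 all 4 passing probes were lower, but from -0.83 to only -0.029; the first read -3.32 and -3.31 against -4.10 and -4.19. A further 3 probes named for their small p were dim on both knockout arrays. These probes entered through the controls, their brighter group, so the rule favoured a difference and their p does not allow for that. They were at least 1.63-fold lower on chr2:176583825-176714400, 1.39-fold on chr9:56910620-56919495 and 1.55-fold on chr6:53808521-53817132, all on the forward strand, with limma adjusted p of 0.165, 0.197 and 0.207. On the last of these strands the other passing probe was higher in the knockouts by 0.22.

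Some of the widest differences belonged to probes seen in 1 group, where the array gives a bound. Such probes enter through their brighter group, so the rule favours a difference and their p does not allow for that. The widest was on the forward strand of chr18:3003075-3016150: -2.61 and -3.76 in the controls, -5.14 and -6.70 and not above background in the knockouts, or at least 3.51-fold lower (adjusted p = 0.351 in limma). The controls themselves stood 1.15 apart there. A forward-strand probe of chr10:62347876-62374346 was at least 1.42-fold lower (adjusted p = 0.257), while 3 other passing probes of that strand were higher, by up to 0.70. A forward-strand probe of chr14:77258025-77278750 was at least 1.45-fold lower (adjusted p = 0.350). In the other direction, a forward-strand probe of chr5:13125413-13310754 was above background on no control array and at least 1.89-fold higher (adjusted p = 0.263). The other passing probe of that strand read -4.17 and -4.45 in the controls and -2.98 and -3.20 in the knockouts, so 2 of its 3 probes were higher in both. A reverse-strand probe of chr4:135896689-135918414 had the largest higher value, 1.59 ± 0.90, which came from 1 control array at -7.28 while the other, at -4.80, was above background and near the knockouts at -4.46 and -4.46.

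No probe of the 5 longest intervals with a passing probe passed in limma, and on some of them the groups were apart. The 1 passing reverse probe of chr5:99726262-100264512, 538250 bases long, was well above background in the controls only, and its measured difference of -0.13 ± 0.13 was no larger than its error (limma adjusted p = 0.697). The 3 forward probes of chr3:34003359-34537330 differed by -0.25, 0.0062 and 0.058. On chr13:28477490-28985604 the 1 passing reverse probe was bright, at 3.52 and 3.57 in the controls and 3.46 and 3.45 in the knockouts, and the 1 passing forward probe differed by 0.20 ± 0.13. Inside it, the 3 reverse probes of chr13:28551902-28975446 were lower in both knockouts, with a strand mean of -0.034 and -0.20 against -0.31 and -0.40 (-0.24 ± 0.086, adjusted p = 0.396 in the fit of strand means). The forward probe of chr12:20620869-21028045 read 0.13 and 0.20 against 0.11 and -0.15. The array's longest interval, of 7128486 bases, had no passing probe.

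Probes of the same strand often went different ways. Of 897 long strands with 3 or more passing probes, 123 had all of them higher and 148 all of them lower in the knockouts, together 30.2%. The groups failed to overlap in every passing probe of 22 higher and 27 lower strands, 5.46% of the 897. Among strands with exactly 3 passing probes, 38.2% of 395 long ones had a single direction, against 56.3% of 311 short intervals and 56.0% of 441 other transcripts with 3 passing probes. All 3 probes separated the groups, in 1 direction, on 16 higher and 13 lower of these long strands (7.34%), on 11 and 31 of the short intervals, and on 15 and 43 of the other transcripts (13.2%). These differences in share were not tested. The 49 strands without overlap ran from -1.41 on the reverse strand of chr16:3111550-3130500 to the 0.94 on chr10:9322308-9332183. They included chrX:18734106-18744367, whose 3 reverse probes had a mean of -2.84 and -3.06 in the controls and -3.79 and -3.83 in the knockouts. They also included chr8:83210957-83219451, whose 3 forward probes had a mean of -3.29 and -3.43 against -2.61 and -2.58, and chr11:112905201-113062945, with 3 reverse probes at -2.53 and -2.44 against -2.04 and -1.96. These 3 were named after their values were seen.

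The forward and reverse strands of an interval were compared through their differences, since levels of separate probes cannot be set side by side. Both strands carried probes on 1067 long intervals, and on no short one. Both strands had a passing probe on 662, the forward strand alone on 161, the reverse alone on 172 and neither on 72. For the 662, the strand difference was tested as the forward minus reverse log2 ratio within each array, knockout against control, over all of them. None passed an adjusted p of 0.05 in limma (0.0% called). The smallest was 0.571, or 0.510 with the trended robust prior, and 52 had an unadjusted p under 0.05 (7.85%). The 2 strands had the same sign in 361 of 662 intervals, and their differences had a Pearson r of 0.12 over the intervals, which share the 4 arrays; it is a description.

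The interval with the smallest p in this comparison was chr18:3003075-3016150. There, the mean of 2 forward probes differed by -1.88 and that of 4 reverse probes by -0.27, a gap of -1.61 ± 0.31 (SE). One of these forward probes, at -2.73, was above background in the controls only. The forward mean also differed between the controls, at -2.44 and -3.51. Strand means here can include probes above background in 1 group only, which enter through their brighter group, so the rule favours a difference in them. On chr8:91569369-91594119 the forward mean was -1.21 and -1.14 in the controls and -1.70 and -1.48 in the knockouts, and the reverse mean -1.16 and -1.26 against -1.07 and -0.88. The strand means thus went opposite ways, with a gap of -0.65 ± 0.15 (adjusted p = 0.571 in limma). The gap changed sign when the brightest probe of each strand was used in place of the mean. On chr4:140609589-140614789 the 1 forward probe was higher by 0.50 and the 1 reverse probe lower by -0.54, and on chr6:126766225-126771309 the 1 forward probe read -3.75 and -3.69 against -3.09 and -3.04 while 4 reverse probes averaged 0.056. On chr17:88993214-89025839 and chr7:96640618-96649018 the reverse strand was higher, by 0.84 (1 probe) and 0.57 (2 probes), and the forward strand near 0, at -0.033 and -0.047.

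**Figure D3:**
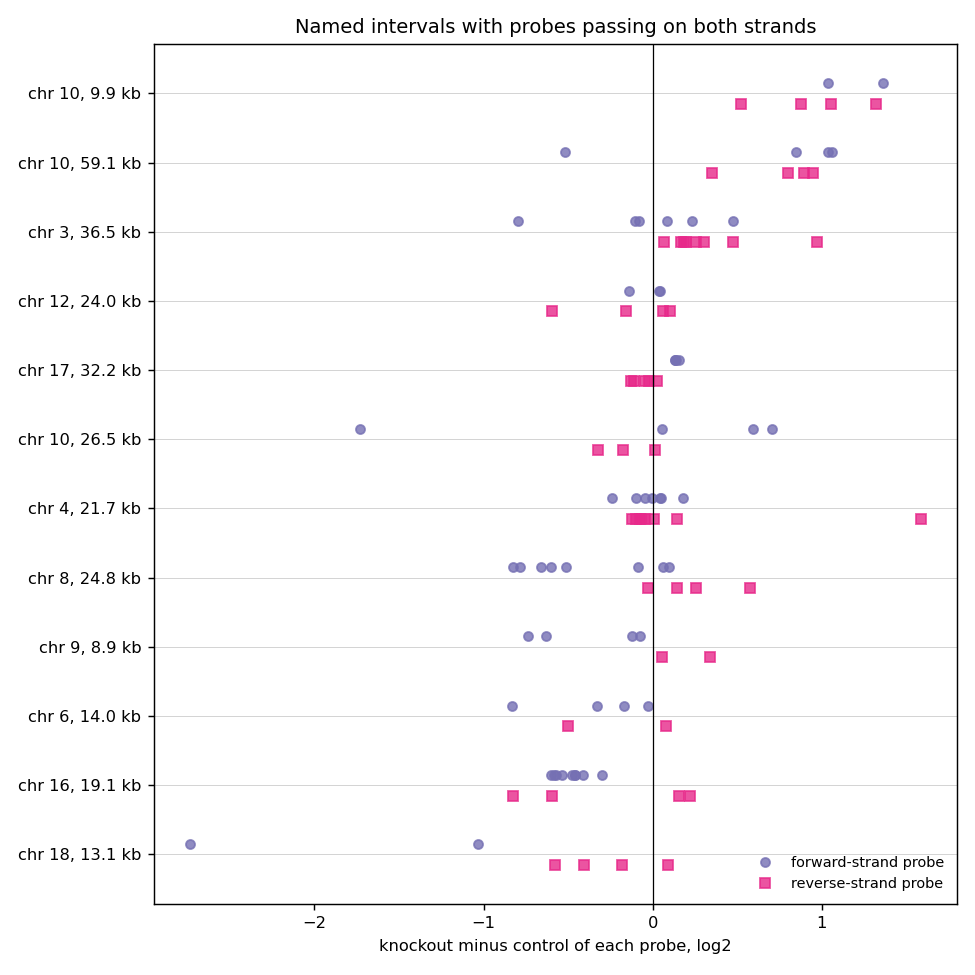
Knockout minus control of each passing probe (x axis, log2) on 12 named intervals, with circles for forward and squares for reverse probes; rows give chromosome and length. Both strands lie right of 0 on the upper chromosome 10 rows, except 1 forward probe, and on the chromosome 8 row the strands lie on opposite sides for most probes.

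Intervals bright on both strands showed small differences on both. On chr17:39960567-39992817, 4 forward probes averaged 3.96 and 3.85 in the controls and 3.94 and 4.15 in the knockouts, and 5 reverse probes 2.84 and 2.72 against 2.78 and 2.67. The gap between the strands was 0.20 ± 0.18. It was -0.0095 ± 0.15 on chr11:19778600-19815950, -0.15 ± 0.16 on chr12:119825125-119850750 and -0.16 ± 0.18 on chr7:108209996-108216032.

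**Figure D4:**
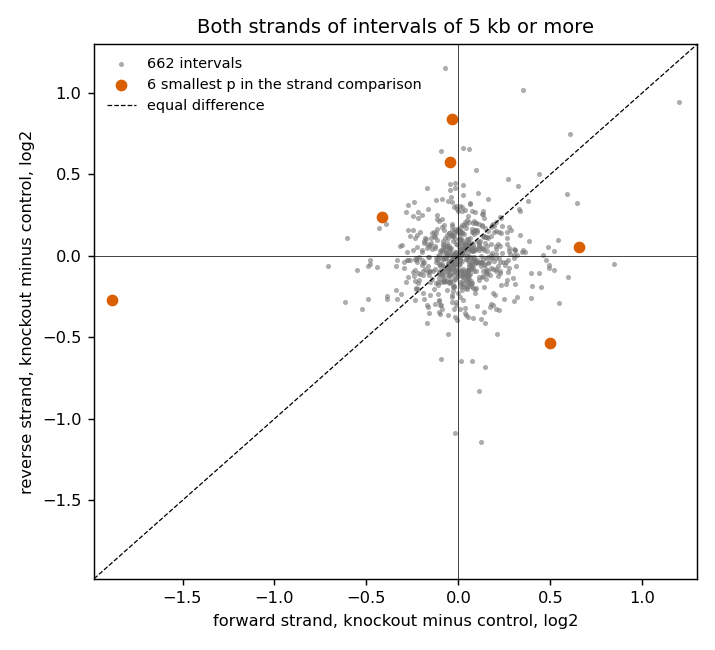
Knockout minus control of the forward (x axis) and reverse strand (y axis), both log2, for 662 long intervals with a passing probe on each; orange marks the 6 with the smallest p in the strand comparison. Most points lie close to 0 on both axes, and the 2 differences have an r of 0.12.

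Differences were also set side by side for related probes, as a description. Over 7753 pairs of passing probes on 1 strand the median gap between their differences was 0.14 (r = 0.28), over 310 pairs of overlapping long intervals on the same strand 0.14 (r = 0.29), and over 573 pairs of a long interval and a short one inside or across it 0.14 (r = 0.20). For 239 pairs of neighbours within 50000 bases on 1 strand that do not overlap it was 0.15 (r = 0.21), and for the 662 strand pairs 0.15 (r = 0.12). All pairs share the 4 arrays, and overlapping intervals can share a transcript, so no test was made. The 2 differences had the same sign in 59.4% of the pairs on 1 strand, 55.2% of overlapping pairs and 61.1% of long and short pairs. For neighbours the share was 50.2%, and for strand pairs 54.5%. One pair of neighbours, named after its values were seen, is chr3:30032959-30079659 and chr3:30099759-30133959, 20100 bases apart on the reverse strand. All 4 passing probes of the first and all 5 of the second were lower in both knockouts, with strand means differing by -0.25 and -0.35.

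Long non-coding RNAs that carry gene names on this array are measured beside the intervals. Of a list of 26, 18 were on the array and tested; 10 were higher and 8 lower in the knockouts, none passed in limma, and their median difference was 0.010, against -0.014 over all probes tested. Hoxa11os, the antisense transcript of Hoxa11, read 4.10 and 4.13 in the controls and 3.47 and 3.63 in the knockouts (-0.56 ± 0.083, adjusted p = 0.245 in limma and 0.00827 with the trended robust prior). Dleu2, host of a microRNA pair, read -2.12 and -2.12 against -1.85 and -1.87. Gnasas1, the imprinted antisense transcript of Gnas, differed by 0.37 ± 0.16. Meg3, a maternally expressed imprinted RNA, read 5.38 and 4.65 against 5.78 and 5.43, so its groups were apart by less than its controls. The groups did not overlap in any of these 4, which were named for their small p; over the 18 tested, they did not overlap for 4 that were higher and 2 that were lower, beside 20.8% and 27.2% of all probes tested.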

How the data were processed

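Total RNA of 4 kidney samples (0.25 µg each) was labelled with Cy3 and hybridised to 1-colour Agilent arrays, per the labels. The deposited scanner files give a processed intensity on a linear scale, already corrected for background by Agilent Feature Extraction 10.7.3.1 (array design 028005, mm9), per the file headers; background calls were read from the same deposited files. Spots marked as outliers were left out (147 to 174 per array; 0 were saturated), and spots of a probe averaged. Signals were divided by each array's 75th percentile (600.0 and 549 in the controls, the first written to 3 digits, 535 and 523 in the knockouts) and set to log2. The deposited value table holds the same intensities (100% within 1%). All arrays lay on 1 slide and 1 scan day. The number of arrays limits the precision.

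Groups came from the genotype in the labels, with replicates numbered in sample order. Probes above background on both arrays of a group were fitted with limma 3.58.1 in R 4.3.3 (lmFit, eBayes, two-sided, default prior; 2 residual and 1.83 prior degrees of freedom), Benjamini-Hochberg over all 34264. Strands were averaged over their complete passing probes; 2 long interval probes lacked a value on 1 array. The bound for a dim probe sets the brighter mean against the dim group's signal, raised on each array to the lowest signal above background where the probe is below it. The fit was tested on simulated data. Probes were named by rule: 8 per direction without overlap by smallest p, the 5 longest intervals, 5 brightest, 3 per direction seen in 1 group, 6 strand pairs by smallest p and 4 brightest pairs. Members, lists and rules were chosen with earlier results of these data known. Alternatives were normexp (offset 50), quantile and median scaling, other filters, priors, weights, the value table, 1 or mean probe per name, other limits and each array left out. Probe and interval sequences, and mm9 gene positions, were not used here.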

Additional observations from a re-analysis of the deposited data

How the results depend on the processing

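No paired analysis was possible because the labels give the 4 samples different numbers and pair none of them. Calls of long interval probes at an adjusted p under 0.05 numbered 0 in limma and 0 under quantile or median scaling, both filters, array weights, the value table and each array left out; normexp gave 6 (5 higher, 1 lower), the trended robust prior 31, and strand means with that prior 4, an alternative chosen after seeing the data. Those 4 were the reverse strands of chr10:8606683-8665783, chr10:9322308-9332183 and chr9:114412295-114418384 and the forward strand of chr14:77077374-77086910. Shares over all probes were counted for the main settings and the trended robust prior only, not for the other alternatives here. The count of 188 probes apart by 1.5-fold became 15 under normexp, 1231 without the background filter, 85 with all 4 arrays above background, 53 with 1 probe or the mean per name, 40 at a 2-fold limit and 404 to 462 with 1 array left out, where a lone array makes separation easier. Sall1 was at -0.72 under normexp (adjusted p = 0.0375) and -0.75 with the trended robust prior (adjusted p = 0.00122); other settings kept the adjusted p above 0.05. Strand pairs gave 0 to 4 calls with 1 array left out: leaving out the first knockout gave chr17:33425193-33449090, chr3:131128972-131163308, chr3:48896525-48994125 and chr19:12079745-12088620, the second knockout chr11:103005375-103020800 and chr17:86560289-86565864, and the first control chr9:67414463-67483185, each named after its values were seen. Detection stayed within 1.5 times, from 4440 to 6615, and the neighbour gap within its spread, from 0.077 to 0.21.

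Of the named probes and strand pairs, 14 values changed sign and none of these passed the threshold; the cause was not tested. For chr5:99726262-100264512 the value was 0.062 under normexp and -0.27 to 0.0022 with 1 array left out. For chr3:34003359-34537330 a probe was at -0.047 (quantile), -0.032 (median) and -0.093 to 0.11 (1 array left out; -0.064 without the second control), and another at -0.070 to 0.19. Quantile normalization put chr12:119825125-119850750 at 0.0093, median centring put chr11:22681800-22707775 at -0.025, and leaving out 1 array put chr12:73838608-73862621 at -0.059 to 0.14. Between strands, chr11:19778600-19815950 was at 0.020 (normexp) and -0.033 to 0.014 (1 array left out), chr7:108209996-108216032 at -0.32 to 0.0022 and chr8:91569369-91594119 at 0.12 with the brightest probe of each strand. With 2 arrays per group and dim probes, small differences were not detectable.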

Other observations

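A few intervals at the first bases listed for a chromosome had the same order of signals over the 4 arrays. Of 29 long strands that start before base 4000000 and have a passing probe, the reverse strand of chr16:3111550-3130500 averaged -2.50 and -3.60 in the controls and -4.20 and -4.73 in the knockouts. The forward strand of chr16:3337275-3355950 averaged -2.40 and -3.27 against -3.60 and -3.85. The forward strand of chr18:3003075-3016150 averaged -2.44 and -3.51 against -4.34 and -5.37, and the forward strand of chr4:3169583-3180017 had 1 passing probe at -4.29 and -5.06 against -5.64 and -5.85. In each of these 4, the same control array was the highest and the same knockout array the lowest, and the controls differed from each other by 0.77 to 1.10. The same arrays were highest and lowest on the reverse strand of chr18:3003075-3016150, at -3.29 and -3.52 against -3.37 and -3.97. So they were on the reverse strand of chr11:3538125-3554450, at -3.23 and -3.28 against -3.24 and -3.68. On both of these strands the groups overlapped. Further strands in the same span did not have these extremes. The 9 passing forward probes of chr17:3198868-3394643 averaged -1.88 and -1.89 against -1.86 and -1.89. The 3 of the reverse strand of chr11:3539787-3548811 averaged 0.64 and 0.68 against 0.57 and 0.63. These strands were chosen after their values were seen, and no test was made.

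On chromosome X, the lower reverse strand of chrX:18734106-18744367 has a short neighbour on the same strand, chrX:18810088-18814982, whose 2 passing probes of 3 averaged -4.03 and -3.94 in the controls and -5.30 and -4.79 in the knockouts. The pair was noticed in the data, and whether both belong to 1 transcript was not tested.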
